A study of Mus musculus with 6 samples.

Results

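The genes that encode the subunits of voltage-gated sodium channels and voltage-gated calcium channels were followed in cultured mouse cochleae with and without neomycin damage. Members were taken by symbol: the sodium channel alpha genes (Scn followed by a number and a), the sodium channel beta genes (Scn followed by a number and b), and the Cacna, Cacnb and Cacng genes of the calcium channel. The pattern matched 39 symbols of the 24421 genes in the count table; 1 further alpha1 gene was set aside by the rule, which left 38 members. Scn2a is listed under its older symbol Scn2a1, which the pattern does not match, so it is no member; it was at 1.25, 1.5 and 0.979 counts per 1000000 (CPM) in the control samples and at 1.56, 0.932 and 1.38 CPM in the neomycin samples.

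The 6 RNA-seq libraries came from cochlear explants of wild-type mice (per the study's culture methods, freed of the stria vascularis anlage, the modiolus and the tectorial membrane), prepared at postnatal day 2, cultured for 12 h and kept for 5 more days after the damage step in 10 μM EdU, a thymidine analogue that marks newly made DNA. There were 3 control samples and 3 neomycin samples, and each was a pool of 6 to 8 cochleae. Neomycin, an aminoglycoside antibiotic that is toxic to hair cells, was given at 1 mM for 6 h; the labels carry that protocol on all 6 samples, and control and neomycin are told apart by title and treatment label. The libraries held between 50471116 and 66068108 counts, so that 3 counts, the limit that a count of 0 allows, corresponded to between 0.0435 and 0.0575 CPM. Intervals, floors and p-values measure the spread and counting error of these pools, and in bulk tissue fewer cells of a type and less RNA per cell cannot be told apart.

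Voltage-gated sodium channels carry the fast inward current of the action potential; a large alpha subunit forms the pore, and beta subunits, single-pass membrane proteins with an immunoglobulin fold, set its gating and placement. In a voltage-gated calcium channel the alpha1 subunit forms the pore and defines the type (L, P/Q, N, R or T). The cytoplasmic beta subunit brings the high-voltage-activated channels to the membrane, and the extracellular alpha2delta subunit raises their surface level and takes part in synapse organization. In hair cells calcium entry through L-type channels at the ribbon synapse drives transmitter release, and spiral ganglion neurons use sodium channels to carry the signal to the brainstem.

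The promoters of Cacnb2 and Cacng6 are shown as examples because these genes changed in opposite directions and have an entry in the RefSeq promoter table (GRCm38.p6, the mm10 assembly); 28 of the 38 members matched this table, with 37 windows. Scn3b, Cacna2d4, Cacna1a, Cacna1g, Cacna1h, Cacng1, Cacng4 and Scn3a were among those with no entry. The 250 bases before each start are printed 5′ to 3′, all on the plus strand, and capitals mark hexamers that basic helix-loop-helix factors bind. One of them is CAGCTG, which reads the same on both strands. Another is CAGATG, which a match on the minus strand shows as its reverse complement. The first Cacnb2 window lies at chr2:14604056-14604305, the second at chr2:14823842-14824091, and the Cacng6 window at chr7:3424412-3424661.
Cacnb2, first start: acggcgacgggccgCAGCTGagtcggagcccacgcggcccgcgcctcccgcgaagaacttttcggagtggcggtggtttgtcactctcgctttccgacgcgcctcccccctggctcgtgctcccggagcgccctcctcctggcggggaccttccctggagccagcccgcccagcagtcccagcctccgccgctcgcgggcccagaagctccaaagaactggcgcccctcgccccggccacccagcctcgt
Cacnb2, second start: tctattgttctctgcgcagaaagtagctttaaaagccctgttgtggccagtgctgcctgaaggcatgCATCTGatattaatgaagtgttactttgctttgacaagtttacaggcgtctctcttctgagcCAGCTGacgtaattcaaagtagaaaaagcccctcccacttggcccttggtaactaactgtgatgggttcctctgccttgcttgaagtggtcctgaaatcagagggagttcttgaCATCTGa
Cacng6: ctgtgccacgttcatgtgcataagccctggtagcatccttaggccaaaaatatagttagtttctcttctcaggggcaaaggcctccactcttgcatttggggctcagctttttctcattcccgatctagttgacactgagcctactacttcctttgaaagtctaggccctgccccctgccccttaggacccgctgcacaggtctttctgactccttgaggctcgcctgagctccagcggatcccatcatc
The first Cacnb2 window was rich in CpG, with 30 CpG dinucleotides and 73.2% G and C, against a median of 6 CpG and 52.4% over 32851 windows. The second Cacnb2 window held 3 CpG dinucleotides and 46.0% G and C, and the Cacng6 window held 5 and 52.8%. CAGCTG stood 236 bases before the first Cacnb2 start and 121 bases before the second, and neither hexamer was found in the Cacng6 window. Cacna1c, also called lower, had 3 windows, none with CAGCTG and 2 with 1 CAGATG each. Among the members' 37 windows 10 (27%) held CAGCTG and 5 (13.5%) held CAGATG, against 13% and 14.4% of all windows. The 9-base stretch TTCAGCACC, part of the element bound by the neuronal gene repressor REST, was in 0 of the 37 windows and in 0.301% of all windows. All motifs were searched on both strands.

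Of the 38 members 31 had enough counts to be tested, and a change was called at an adjusted p under 0.05 and a fold change over 1.5. The genes Cacna1c, Cacna2d4, Cacnb2 and Scn3b were called lower after neomycin, and Cacng6 was called higher. The 4 lower calls stand beside a background of 6.5% of all 15988 genes tested, and the 1 higher call beside 2.26%, or 8.76% for both directions. At an adjusted p under 0.05 alone 9 members passed (edgeR's quasi-likelihood test), 7 of them lower and 2 higher, where the background was 29.2% (16.1% lower and 13.1% higher). The neomycin and control values of 10 tested members did not overlap, beside 43.5% of all genes tested. The share of members with an adjusted p under 0.05 was thus close to that of all genes, and the share without overlap was smaller. Of the tested members 22 had a log2 fold change below 0 (71.0%), beside 50.5% of all genes, and the members' median was −0.19, beside −0.00 over all genes.

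**Figure D1:**
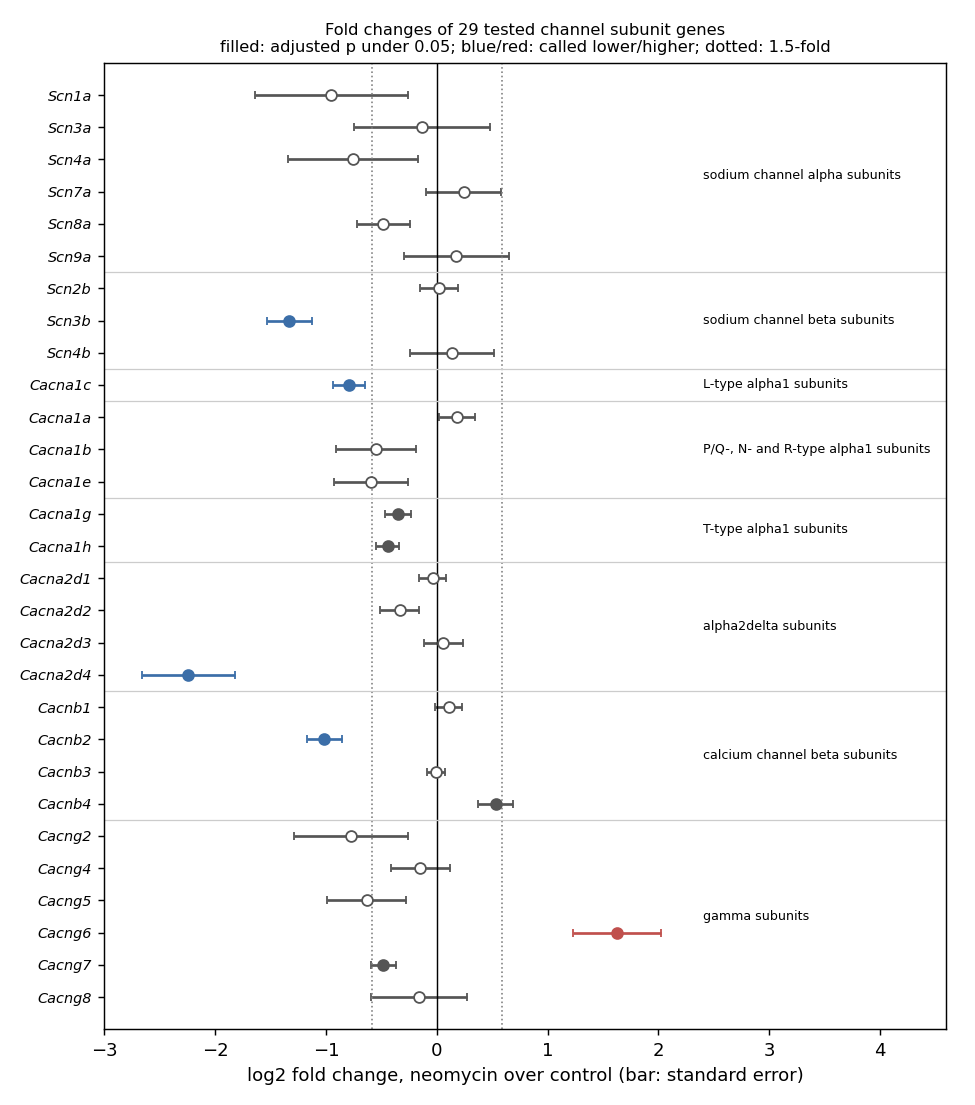
Log2 fold change of neomycin over control for 29 tested channel subunit genes, grouped by subunit class, with bars for the standard error and dotted lines at 1.5-fold. Scn3b, Cacna1c, Cacna2d4 and Cacnb2 (blue) lie left of the lower line and Cacng6 (red) right of the upper one, and filled grey points are genes with an adjusted p under 0.05 and a smaller change.

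Among the sodium channel alpha genes, none of the 7 tested passed the test. Scn7a, which encodes an atypical channel gated by extracellular sodium, averaged 1.65 ± 0.604 CPM in control and 1.96 ± 0.720 CPM in neomycin samples (SD, n = 3). Scn8a, the channel of mature nodes of Ranvier, was at 3.55, 2.86 and 2.19 CPM in control and at 2.11, 1.71 and 2.35 CPM in neomycin samples. For Scn8a the log2 fold change was −0.48 with an adjusted p of 0.147 (edgeR), and the values of the groups overlapped. Scn1a, Scn3a, Scn4a and Scn9a, channels of brain, embryonic neurons, skeletal muscle and sensory neurons respectively, stayed under 1 CPM on average in both groups. Scn10a had 0 counts in all 6 samples, and Scn11a, like Scn10a a channel typical of pain-sensing neurons, had at most 22 counts in a sample and was not tested.

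Of the 4 sodium channel beta genes Scn3b alone was called. Scn3b (chr9:40269217-40291618) encodes a noncovalently bound beta subunit of neurons. It was at 7.58, 6.77 and 5.36 CPM in the control samples and at 3.28, 2.02 and 2.55 CPM in the neomycin samples. Every neomycin sample lay below every control sample. Its mean fell from 6.57 ± 1.13 to 2.61 ± 0.632 CPM (SD, n = 3), which was 2.52-fold lower (log2 fold change −1.33, SE 0.20, adjusted p = 0.000446, edgeR). The disulfide-linked subunit gene Scn2b averaged 4.96 ± 0.767 and 5.04 ± 0.694 CPM (SD, n = 3). Scn4b, the other disulfide-linked subunit, stayed under 1 CPM on average in both groups.

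Cacna1c was the sole L-type alpha1 member with enough counts to be tested. It encodes the pore of the L-type channel of heart, smooth muscle and brain (chr6:118587240-119196418). In control samples it was at 12.0, 12.2 and 9.48 CPM, and in neomycin samples at 6.65, 7.29 and 5.49 CPM. The groups did not overlap, and control replicate 3 was the lowest control. The mean fell from 11.2 ± 1.52 to 6.48 ± 0.910 CPM (SD, n = 3), 1.73-fold lower (log2 fold change −0.79, SE 0.15, adjusted p = 0.00154, edgeR). Cacna1f, the retinal L-type gene, and Cacna1s, the skeletal muscle L-type gene, had too few counts to be tested; Cacna1s had 0 or 1 count in each sample.

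None of the P/Q-, N- and R-type alpha1 genes passed the test. Cacna1a, the P/Q-type gene of central synapses, averaged 6.80 ± 1.55 CPM in control and 7.74 ± 0.657 CPM in neomycin samples (SD, n = 3), with a log2 fold change of 0.18. Per kilobase it made up 72.4% of this class in control and 81.0% in neomycin samples. Cacna1e, the R-type gene, was at 5.46, 2.30 and 2.24 CPM in control and at 2.49, 2.56 and 1.62 CPM in neomycin samples. Control replicate 1 stood above all others for Cacna1e, whose adjusted p was 0.203 with that sample and 0.963 without it (edgeR). The N-type gene Cacna1b was near 1 CPM, with control means of 1.02 CPM and neomycin means of 0.703 CPM.

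The T-type genes Cacna1g and Cacna1h, which encode low-voltage-activated channels, were both lower in neomycin samples at an adjusted p under 0.05, and neither passed 1.5-fold. Cacna1h was at 18.8, 16.3 and 16.9 CPM in control and at 12.9, 12.6 and 12.8 CPM in neomycin samples, with no overlap (log2 fold change −0.44, SE 0.10, adjusted p = 0.0052, edgeR). Cacna1g, the alpha1 gene with the highest level per kilobase among the members, was at 66.3, 50.7 and 45.9 CPM in control and at 40.9, 41.4 and 45.5 CPM in neomycin samples. The groups did not overlap, but neomycin replicate 3 lay just under control replicate 3. The log2 fold change of Cacna1g was −0.35 (SE 0.12, adjusted p = 0.0369, edgeR) and came to −0.18 with an adjusted p of 0.166 without control replicate 1. Its adjusted p (edgeR) was also above 0.05 without control replicate 2 (0.0624), neomycin replicate 1 (0.109) or neomycin replicate 2 (0.122). Cacna1i, the remaining T-type gene, had too few counts to be tested.

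In the alpha2delta class Cacna2d4 showed the largest decrease of the tested members. It encodes the alpha2delta subunit known from photoreceptor synapses (chr6:119236526-119352407). The gene lies on the plus strand and Cacna1c on the minus strand of the same chromosome, with 40.1 kb between their starts. Cacna2d4 was at 1.59, 0.978 and 1.69 CPM in the control samples and at 0.301, 0.424 and 0.168 CPM in the neomycin samples. The lowest control stood clear of the highest neomycin sample. Its mean fell from 1.42 ± 0.387 to 0.298 ± 0.128 CPM (SD, n = 3), which was 4.73-fold lower (log2 fold change −2.24, SE 0.42, adjusted p = 0.00163, edgeR). The other alpha2delta genes did not pass the test. Cacna2d1, a gabapentin-binding subunit that made up 50.8% of the class sum per kilobase in control samples, averaged 25.3 ± 4.16 CPM in control and 24.6 ± 2.38 CPM in neomycin samples (SD, n = 3). Cacna2d2, another gabapentin-binding subunit, averaged 8.86 ± 2.39 and 7.04 ± 0.827 CPM, and its control replicate 1 stood at 11.6 CPM above 7.19 and 7.79 CPM in the other controls. Cacna2d3, an alpha2delta gene needed for normal auditory nerve synapses in mice, was at 8.26, 5.46 and 5.25 CPM in control and at 7.02, 6.10 and 6.70 CPM in neomycin samples.

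In the calcium channel beta class Cacnb2 and Cacnb4 moved in opposite directions at an adjusted p under 0.05, and Cacnb3 and Cacnb1 did not pass the test. Cacnb2 (chr2:14603088-14987908) encodes the beta subunit on which the L-type current of inner hair cells depends in mice. It was at 7.07, 7.07 and 6.00 CPM in control and at 3.62, 3.15 and 3.20 CPM in neomycin samples. The groups were far apart relative to their spread. The mean fell from 6.71 ± 0.622 to 3.32 ± 0.254 CPM (SD, n = 3), 2.02-fold lower (log2 fold change −1.01, SE 0.16, adjusted p = 0.000487, edgeR).

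Cacnb4 (chr2:52428320-52676831), a neuronal beta subunit, was at 6.01, 5.33 and 4.45 CPM in control and at 8.55, 7.71 and 6.63 CPM in neomycin samples. All neomycin samples lay above all controls. The log2 fold change was 0.53 (SE 0.16, adjusted p = 0.0223, edgeR), under 1.5-fold. Without control replicate 2 the adjusted p was 0.0668, without control replicate 3 it was 0.0532, and without neomycin replicate 1 or 2 it was 0.0758 (edgeR). Per kilobase, the ratio of Cacnb2 to Cacnb4 was 0.797, 0.899 and 0.913 in control and 0.287, 0.277 and 0.327 in neomycin samples. Genes on the opposite strand share exonic bases with both: A430018G15Rik with 1433 bases of Cacnb4, and 3 genes with 618, 239 and 111 bases of Cacnb2. The strand setting of the counting is not given in the sources used here, so reads in those bases cannot be assigned to a strand.

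Cacnb3 was the member with the highest level per kilobase, at 26.0 ± 2.19 CPM per kilobase in control and 25.9 ± 1.75 in neomycin samples (SD, n = 3). It made up 88.9% of the beta class in control and 88.3% in neomycin samples, and Cacnb2 1.75% and 0.858%. The log2 fold change of Cacnb3 was −0.01 (adjusted p = 0.941, edgeR). Cacnb1, the beta subunit of skeletal muscle and brain, averaged 9.69 ± 0.748 CPM in control and 10.4 ± 0.644 CPM in neomycin samples.

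The gamma genes encode a family of tetraspan membrane proteins that includes calcium channel subunits of muscle and the TARPs, which traffic AMPA receptors. Cacng6 (chr7:3424195-3435667), of the muscle-type branch, was the sole member called higher. Its counts were 29, 13 and 29 in control and 45, 83 and 77 in neomycin samples, or 0.420, 0.249 and 0.516 CPM against 0.847, 1.41 and 1.43 CPM. Every neomycin sample was above every control, at low depth. The mean rose from 0.395 ± 0.135 to 1.23 ± 0.331 CPM (SD, n = 3), 3.09-fold higher (log2 fold change 1.63, SE 0.40, adjusted p = 0.0084, edgeR). Leaving out control replicate 2, which had 13 counts, gave an adjusted p of 0.0454 (edgeR), the highest of the 6 leave-one-out fits.

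Cacng6 lies in a cluster with the TARP genes Cacng7 and Cacng8, which did not share its direction. Cacng7 (chr7:3332955-3368221) ends 22.5 kb before Cacng8, and Cacng8 ends 8.55 kb before Cacng6. Cacng7 was at 30.8, 22.7 and 26.8 CPM in control and at 21.2, 18.1 and 18.2 CPM in neomycin samples, without overlap. Its log2 fold change was −0.48 (SE 0.11, adjusted p = 0.00673, edgeR), under 1.5-fold. Per kilobase Cacng7 held 86.3% of the gamma class in control and 81.1% in neomycin samples, while Cacng6 went from 1.56% to 6.54%. Cacng8 stayed under 1 CPM and did not pass the test. Cacng5, another TARP gene, was at 4.30, 2.01 and 1.8 CPM in control and at 2.47, 1.17 and 1.64 CPM in neomycin samples (log2 fold change −0.63, adjusted p = 0.199, edgeR). Cacng4, a TARP gene too, averaged 1.90 CPM and 1.71 CPM, Cacng2 (stargazin) was under 1 CPM, and Cacng1 and Cacng3 were not tested.

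**Figure D2:**
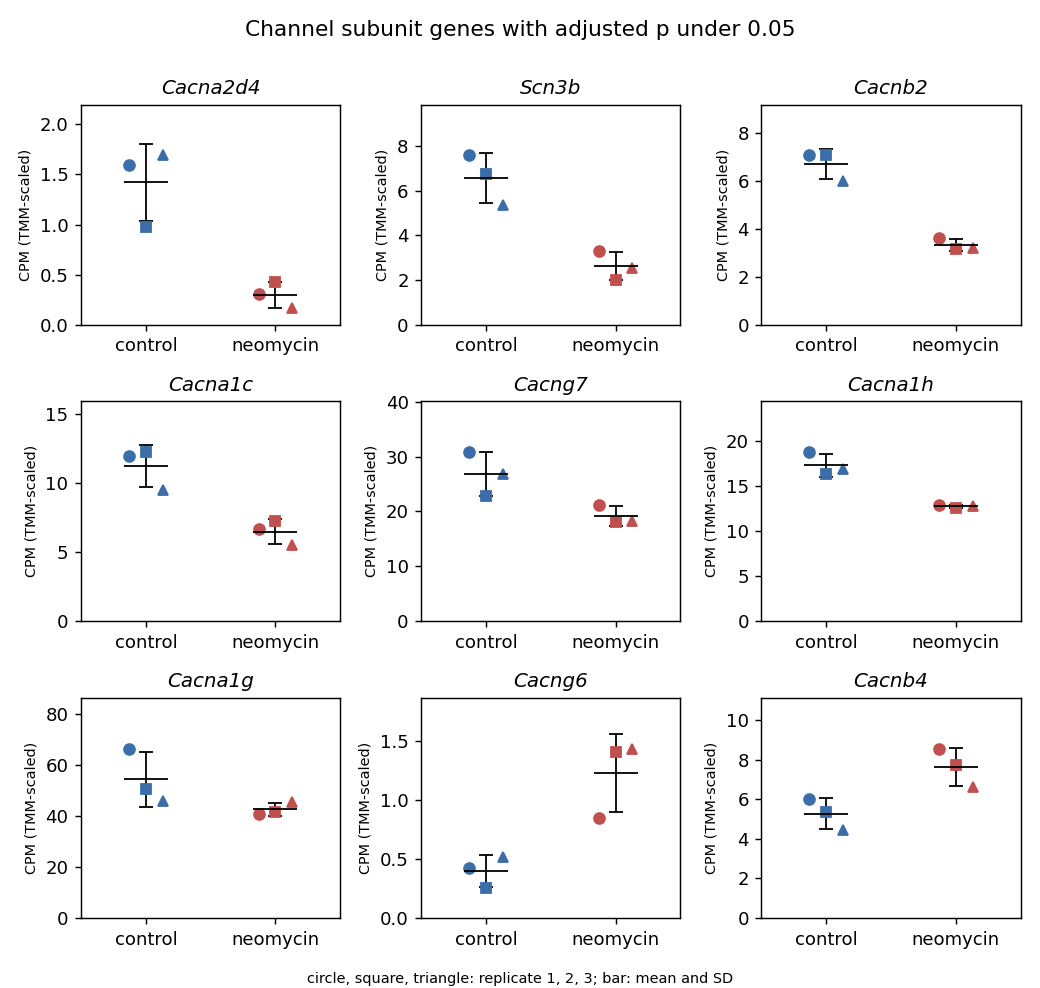
CPM of each sample for the 9 channel subunit genes with an adjusted p under 0.05, with circles, squares and triangles for replicates 1, 2 and 3 and bars for the mean and SD. All neomycin samples of Scn3b, Cacna1c, Cacna2d4, Cacnb2, Cacng7, Cacna1h and Cacna1g lie below the controls and those of Cacng6 and Cacnb4 above them, with Cacna1g the closest to overlap.

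The levels of the members spanned several orders of magnitude per kilobase of exon. Cacng7 was at 11 CPM per kilobase in control and 7.86 in neomycin samples. In control samples Cacna1g was at 5.36 ± 1.05 CPM per kilobase and Cacnb1 at 2.14. The control level of Cacna2d1, at 2.03 CPM per kilobase, lay within the spread of Cacnb1, and Cacna1h was at 1.77. Among the members the most abundant alpha1 genes described here were thus T-type, and Cacnb3 and Cacng7 were high among the auxiliary subunits. Of the called genes, Scn3b was at 1.20 ± 0.206 CPM per kilobase in control, Cacna1c at 0.530, Cacnb2 at 0.508, Cacng6 at 0.200 and Cacna2d4 at 0.150.

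**Figure D3:**
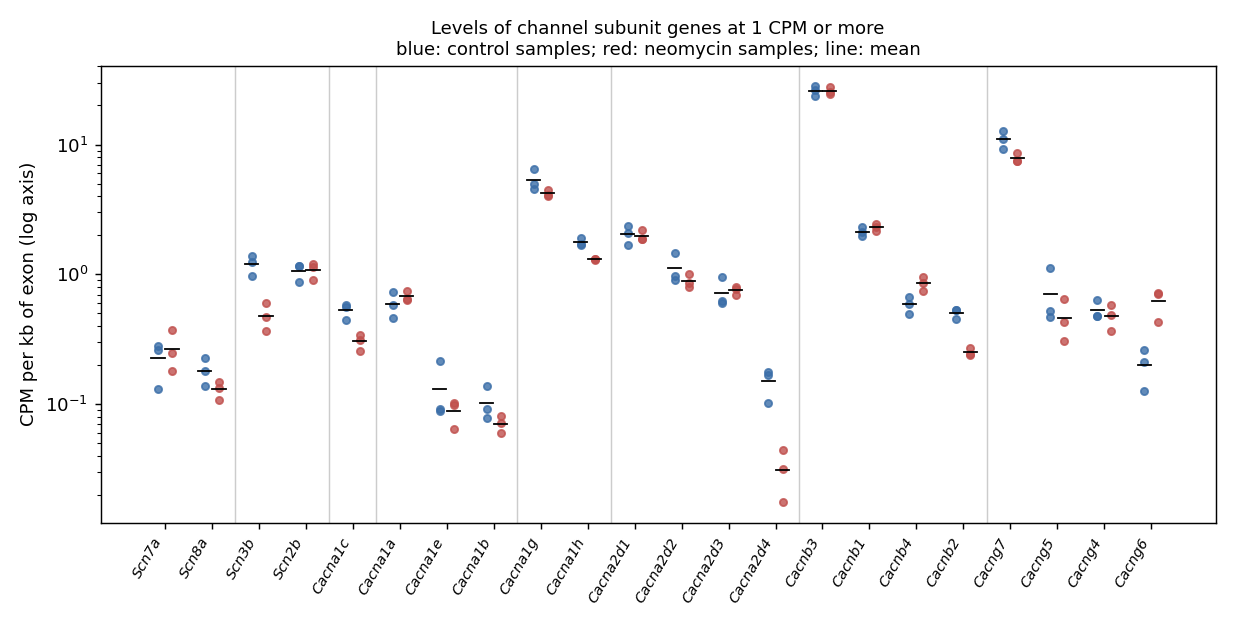
CPM per kilobase of exon (log axis) for 22 channel subunit genes with a mean of at least 1 CPM in either group, with one point for each control sample (blue) and neomycin sample (red) and a line at the mean. Cacnb3 and Cacng7 stand highest in both groups, and Cacna2d4 in neomycin samples stands lowest.

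Members under 1 CPM numbered 14, of which 7 were tested. None of these 7 had an adjusted p under 0.05 (the lowest was 0.273, edgeR), with log2 fold changes between −0.95 and 0.18. The 15 members of at least 1 CPM that did not pass had log2 fold changes between −0.63 and 0.24 and adjusted p between 0.147 and 0.942 (edgeR).

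Among the controls, replicate 1 gave the highest value for 20 of the 31 tested members, replicate 2 for 7 and replicate 3 for 4. Over all genes tested the shares were 34.8%, 28.8% and 36.5%. The summed level of 16 neuron markers was also highest in control replicate 1, at 441 CPM against 359 and 355 CPM in the other controls. In neomycin samples it was 367 to 374 CPM. The same order held for the marker sums of Schwann cells, smooth muscle and pericytes, and mesenchyme, where control replicate 1 was the highest control. It did not hold for those of hair cells, supporting cells, skeletal muscle, endothelium, macrophages and melanocytes. Nefl, a neurofilament gene of axons, was at 55.4 CPM in control replicate 1 and at 34.7 and 31.5 CPM in the others. The part of neurons or of the other cell types in the members' values was not tested.

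The members are long transcripts, and length moved with the fold change in these data. The median exon length was 8.72 kb for tested members and 4.26 kb for all genes tested, and 21 members exceeded 5 kb. The 6433 genes over 5 kb had a median log2 fold change of −0.14, which became −0.01 once each sample's smooth trend of level on exon length was removed. The corrected median follows from the correction by construction and is no separate result. Of the genes over 5 kb 9.4% were called lower. With the trend removed, Scn3b (log2 fold change −1.27), Cacna2d4 (−2.08) and Cacnb2 (−0.79) kept their calls, and Cacng6 was still higher (1.44). Cacna1c came to −0.50 with an adjusted p of 0.0112 (edgeR), under 1.5-fold, and was no longer called. Cacng7 (−0.62) and Cacnb4 (0.70) passed 1.5-fold, while Cacna1g (−0.16, adjusted p = 0.268) and Cacna1h (−0.27, adjusted p = 0.0555) lost significance (edgeR). The median over the members was −0.20 after the correction.

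**Figure D4:**
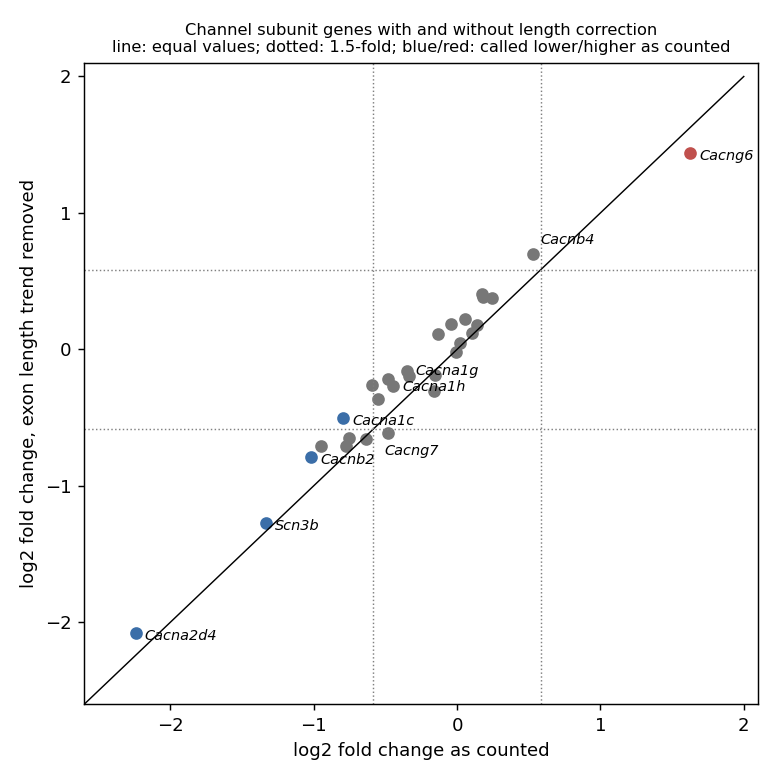
Log2 fold change of 29 tested channel subunit genes as counted (horizontal axis) and with the exon length trend removed (vertical axis), with a line at equal values and dotted lines at 1.5-fold. Cacna1c moves inside the lower threshold, Cacng7 and Cacnb4 move outside the thresholds, and Scn3b, Cacna2d4, Cacnb2 and Cacng6 stay outside.

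Of 24 proteins that bind or regulate calcium channels, 11 were called lower and 0 higher, with a median log2 fold change of −0.59. Over all genes tested 6.5% were called lower and 2.26% higher. Cabp2, a calmodulin-like modulator of hair cell L-type channels, was at 12.6, 14.1 and 17.9 CPM in control and at 1.88, 2.46 and 1.81 CPM in neomycin samples (log2 fold change −2.85, SE 0.17, adjusted p = 1.1e-07, edgeR). The relatives Cabp4 (−2.0) and Cabp1 (−1.18) fell too, at low levels. Cabp4 averaged 0.801 CPM in control and 0.197 CPM in neomycin samples, and Cabp1 1.27 and 0.557 CPM. Of the presynaptic scaffold genes, Rimbp2 and Rims2 fell as well. Rimbp2, which links calcium channels to the release machinery, averaged 1.91 CPM in control and 0.412 CPM in neomycin samples (log2 fold change −2.21), and Rims2 averaged 8.11 and 3.89 CPM (−1.06). Among the small GTPases that inhibit calcium channels through the beta subunit, Rem1 (−1.32), Rrad (−0.72) and Gem (−0.62) were called lower. Camk2b (−1.30), a calmodulin-dependent kinase subunit, and Stac (−0.75), an adaptor of L-type channels, were called lower too. Of these genes 5, namely Cabp1, Cabp4, Gem, Rrad and Stac, lost their calls when 1 sample was left out, all of them without control replicate 2, where 6 genes were still called. Gem also lost it without control replicate 3, neomycin replicate 1 or neomycin replicate 3, Rrad without control replicate 1, neomycin replicate 1 or neomycin replicate 3, and Cabp1 without neomycin replicate 1.

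Of 17 sodium channel partners 0 were called, with a median log2 fold change of −0.02. Over all genes tested 8.76% were called in either direction, and 0 in a list of this size is close to that share. The 1 gene with an adjusted p under 0.05 (edgeR) was Ank3, the ankyrin that anchors sodium channels at the axon initial segment and nodes, at 51.2 CPM in control and 35.9 CPM in neomycin samples (−0.51; −0.18 with the length trend removed). In the complex of the sodium leak channel, a related channel that is not gated in the usual way, the accessory genes Fam155a (−2.07), Unc79 (−1.92) and Unc80 (−1.08) were called lower. These accessory genes were low, averaging 1.16, 2.19 and 2.45 CPM in control and 0.277, 0.580 and 1.16 CPM in neomycin samples. With a filter of at least 1 CPM in 3 samples, 2 genes of the complex were called lower. The pore gene Nalcn averaged 33.0 CPM in control and 38.1 CPM in neomycin samples (log2 fold change 0.21, adjusted p = 0.146, edgeR). Among 7 other voltage-dependent cation and proton channels 5 were tested and 0 were called, beside the same 8.76%. The difference between the lists was not tested.

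**Figure D5:**
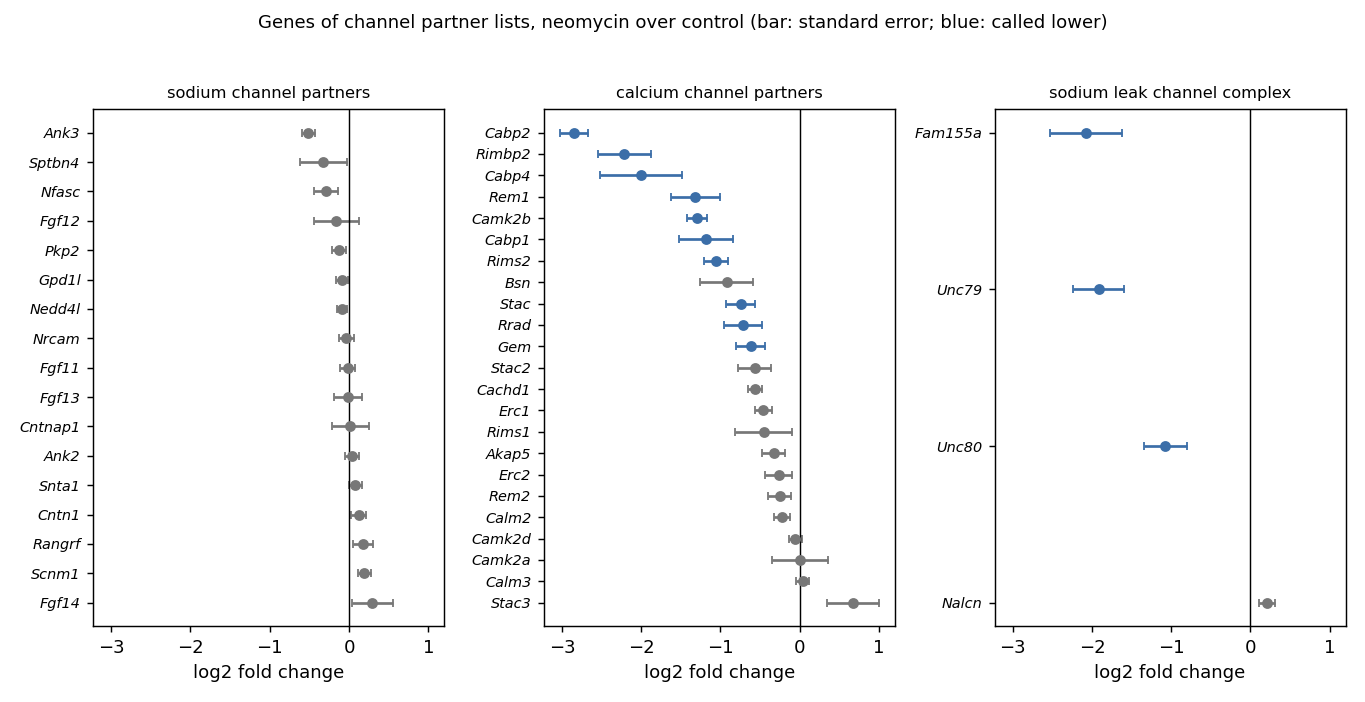
Log2 fold changes of neomycin over control, with standard errors, for the partner genes of sodium channels, the partner genes of calcium channels and the sodium leak channel complex, with blue for genes called lower. No sodium channel partner is called, and Ank3 lies lowest of them at −0.51. Of the 23 calcium channel partners drawn 10 are called lower, and Fam155a, Unc79 and Unc80 are lower beside Nalcn.

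Markers of the cell types in the explant were read from the same fit, where 6.5% of all genes tested were called lower and 2.26% higher. Of 25 hair cell markers 21 were called lower and 0 higher, and their summed level was 1090 to 1211 CPM in control and 404 to 507 CPM in neomycin samples. The largest decrease among them was that of Slc26a5, the outer hair cell motor protein prestin, from 25.8 ± 2.33 to 1.61 ± 0.280 CPM (SD, n = 3; log2 fold change −3.99), followed by Ocm (−3.41), Tmc1 (−3.16) and Strc (−3.11). No hair cell marker was at 0 in all samples, and 19 of them were called lower with the length trend removed. The share of the hair cell decrease in the lower values of Cacnb2, Cacna2d4, Cacna1c, Scn3b and the calcium channel partners was not tested.

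Of 15 tested neuron markers 4 were called lower, Nefl (−1.15), Snap25 (−1.01), Syn1 (−1.0) and Nefm (−0.89), and the median over the list was −0.35. Nefm lost its call without neomycin replicate 1 or 3, and 8 markers were called lower without control replicate 3. Ntrk2 (0.39, adjusted p = 0.00381) and Uchl1 (0.25, adjusted p = 0.0203) were higher under 1.5-fold (edgeR). With the length trend removed Nefm was no longer called, and 3 neuron markers were called lower and 2 higher, Ntrk2 (0.67) and Ntrk3 (0.63). Of 10 endothelial markers 7 were called lower, led by Cldn5 (−3.40), Tie1 (−2.83) and Pecam1 (−2.71). The summed level of the list overlapped between groups (312 to 354 CPM in control and 298 to 351 CPM in neomycin samples). Most of that sum came from Emcn, which was not called and averaged 252 CPM in control and 273 CPM in neomycin samples (0.12). In smooth muscle and pericytes, cells that use Cacna1c, 2 of 8 markers were called lower, Kcnj8 (−1.58) and Abcc9 (−1.29), and the summed level was 183 to 208 CPM in control and 150 to 169 CPM in neomycin samples. Of 13 skeletal muscle markers 7 were tested and Chrna1, an acetylcholine receptor gene, was called lower (−2.74), while Myod1 and Pax7 were at 0 in all samples. The summed level of the muscle list was 23.6 to 29.8 CPM in control and 12.7 to 14.7 CPM in neomycin samples, a difference carried by Chrna1 (17.3 and 2.59 CPM). The other 6 tested muscle markers did not pass the test and had log2 fold changes between 0.02 (Actn3) and 0.76 (Acta1), and the median of the list was 0.08.

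Other lists moved less or the other way. Of 11 macrophage markers 5 were called higher and 0 lower (median 0.59), though 0 of them with the length trend removed, 2 without control replicate 1 and 3 without neomycin replicate 2. Their summed level was 100 to 132 CPM in control and 145 to 180 CPM in neomycin samples. In supporting cells 2 of 15 markers were called lower, Prox1 (−1.46) and Fgfr3 (−0.66), and the median was −0.05 (summed level 1502 to 1552 and 1501 to 1672 CPM). Fgfr3 came to −0.55 with the length trend removed and was no longer called. Gjb6 (0.42, adjusted p = 0.000584) and Fabp7 (0.30, adjusted p = 0.0189) were higher under 1.5-fold (edgeR), and Lfng (−0.36, adjusted p = 0.0112) and Jag1 (−0.31, adjusted p = 0.00793) lower. Of 12 Schwann cell markers 2 were called lower, Erbb3 (−0.90) and Ngfr (−0.60), and of 10 mesenchymal markers Col1a1 was called lower (−1.20) and Dcn higher (0.64). Ngfr lost its call without control replicate 1, neomycin replicate 1 or neomycin replicate 3, and Dcn without control replicate 2. The summed levels were 791 to 853 and 720 to 789 CPM for Schwann cells, and 6353 to 6975 and 6657 to 6888 CPM for mesenchyme. Of 5 melanocyte markers 3 were tested and 0 were called, at summed levels of 20.4 to 33.2 and 20.6 to 31.2 CPM. The part of each of these cell types in the channel subunit values was not tested.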

How the data were processed

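RNA was taken from 3 control and 3 neomycin samples, and the authors deposited 1 table of counts per gene. Per the labels and the methods, reads were trimmed with Trimmomatic 0.23, aligned to mm10 with HISAT2 and counted with HTSeq, whose strand setting is not given in the sources used here. Genes were tested with edgeR 4.0.16 (R 4.3.3): TMM scaling, the default filter on low counts, the robust quasi-likelihood test on all 6 samples with no covariate, and Benjamini-Hochberg adjustment over 15988 genes. CPM values are TMM-scaled. SE is the size of the log2 fold change over the root of F. Levels between genes are CPM per kilobase of merged exons (GENCODE M21; 99.2% of tested genes had a length). For each sample, the length correction takes every gene's log2 CPM minus its mean over the samples. It fits a lowess trend (span 0.3) of these deviations on log2 exon length and enters the trend as that sample's offsets. Alternatives were DESeq2 1.42.0, limma 3.58.1 (voom), other scalings, filters and thresholds, the replicate block, the length correction and leaving out each sample. Fits were tested on simulated data. Members, named genes (each called member in full, each other with a mean of at least 1 CPM by level, each called partner, and at most 4 called markers a list) and the 14 lists were chosen with earlier results of these data known. Some genes that enter the counts and medians are not reported here. The series' design text describes other cells than these explants, and the sample labels were followed.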

Additional observations from a re-analysis of the deposited data

How the results depend on the processing

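The 22 named members were fitted under 15 alternatives, which gave 328 values. Of these 295 kept their direction and their side of the threshold, and of 74 values for called members 72 did; the exceptions were Cacna1c with the length correction (log2 fold change −0.50) and with the block and length correction (−0.51). Members called lower numbered 4 in each leave-one-out fit and 7 with no fold threshold. Members called higher, 1 as reported, numbered 0 with at least 1 CPM in 3 samples, since Cacng6 was then not tested, and 2 with the length correction, with the block and length correction and with no fold threshold; leaving out a sample gave 1 to 2, and 2 came without control replicate 1 and without neomycin replicate 3. Members with an adjusted p under 0.05 (9 as reported) numbered 7 to 9 with a sample left out. Marker genes called higher (6 as reported) numbered 3 with either length correction, 12 with no fold threshold, 0 above 2-fold and 3 to 7 with a sample left out. Partner genes called lower (14 as reported) numbered 9 to 16 with a sample left out, the 9 without control replicate 2, and those called higher 0 to 1, the 1 without control replicate 3. Directions reversed for uncalled members near 0: with either length correction Cacna2d1 came to 0.19, and with upper quartile scaling Cacnb3 came to 0.011. With a sample left out the log2 fold change ranged from −0.15 to 0.078 for Cacna2d1, −0.049 to 0.31 for Cacna2d3, −0.070 to 0.057 for Cacnb3, −0.32 to 0.012 for Cacng4, −0.090 to 0.13 for Scn2b and −0.077 to 0.46 for Scn7a. The cause of these shifts was not tested. The replicate block gave 4 members called lower, 1 higher and 8 with an adjusted p under 0.05; Cacna1g then had an adjusted p of 0.0749 (edgeR). Deviations of same-numbered samples correlated at 0.165, 0.0264 and 0.0949 over 15988 genes. Control replicates 1 and 3 correlated best with the neomycin sample of the same number, and control replicate 2 slightly better with neomycin replicate 3 (0.0325). The labels state no pairing, so the main fit used none, and whether the numbers mark pairs stays unsettled. Depth limits the 7 untested members, whose highest count was 22, and Cacng6.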
